A study of Mus musculus with 16 samples.

Results

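The libraries compared here are the wild-type controls of 2 mouse lines, called P2WT and P2H2WT in the titles. They are 8 of the 16 libraries of the series, 4 in each group, and they were chosen by title from the 2 count tables, which were joined on the Ensembl identifier. The comparison took in every autosomal gene. Of 45108 autosomal gene rows, 13120 had enough counts to be tested, and 20906 had no count in any of the 8 control libraries. All libraries were RNA sequencing of neutrophils sorted by flow cytometry from the bones of C57BL/6 mice aged 8 to 12 weeks, and no treatment is named. P2WT are the controls of P2KO mice (Vav:cre-PHD2f/f), and P2H2WT are the controls of P2H2KO mice (Vav:cre-PHD2/HIF2ff/ff). The labels call both control groups wild type and do not say whether they carry floxed alleles or the recombinase. Vav:cre is driven by the promoter of Vav1, a gene of blood-forming cells. Since both groups are controls, the comparison measures how far the lines differ without the deletion of PHD2 or HIF2. The labels do not state that each library came from another mouse, so p-values measure only the spread between these samples. The P2 libraries carry title numbers up to 10 and the P2H2 libraries higher numbers, so the line cannot be told apart from anything else that followed this numbering.

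Neutrophils develop in the bone marrow, store enzymes in granules and enter the blood through thin-walled vessels called sinusoids. These vessels are lined by endothelial cells with scavenger receptors, rest on a basement membrane of laminin, collagen IV, nidogen and perlecan, and are wrapped by stromal cells that carry the leptin receptor and secrete CXCL12, which holds neutrophils in the marrow. Bone-forming cells and macrophages lie close by.

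The control libraries held 24169451 to 28136068 counts, with 18865 to 19518 autosomal genes detected. Levels are given as CPM, the counts divided by the scaled library size and multiplied up to a common total, and comparisons as the fitted log2 difference, P2WT minus P2H2WT, so that a positive value is higher in P2WT. The 10 defining neutrophil markers were present in each library, with S100a9 at 10024 to 17954 CPM and Ly6g at 117 to 222 CPM, and no defining marker of any cell type examined was at 0. Markers of other blood cells were present too, with the haemoglobin gene Hbb-bs at 10429 to 17290 CPM and the eosinophil gene Prg2 at 2062 to 3411 CPM. Pairs of libraries within a group differed by more than counting noise (chi-square per degree of freedom of at least 10.7), so no pair looked like 1 library deposited again. The first principal component of log2 CPM, with 33.8% of the variance, placed P2WT between -21.4 and -18.1 and P2H2WT between 15.5 and 24.2. Titles end in m or f, which the labels do not explain, with 2 of each in P2WT and 3 m and 1 f in P2H2WT.

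Genes of vessels, basement membrane and marrow stroma were higher in P2WT, and no gene of the neutrophil lists passed the test. Of the 13120 autosomal genes, 161 (1.23%) fell under an adjusted p of 0.05 in edgeR's quasi-likelihood test, adjusted by Benjamini-Hochberg over the genes of all chromosomes, and these are termed called. The higher group was P2WT for 143 genes (1.09%) and P2H2WT for 18 genes (0.137%). Of the 143, 41 belonged to the endothelial, stroma or matrix list, from which 105 genes were tested. Without adjustment, 1498 genes (11.4%) had a p under 0.05. For 1021 genes (7.78%) the groups did not overlap, 673 of them higher in P2WT (5.13%) and 348 lower (2.65%). The median log2 difference over all autosomal genes was -0.011. All 161 differences had the same sign within the m libraries and within the f libraries. The genes were called on these same libraries, and P2H2WT has a single f library, so shared signs were largely set in advance. A test of the 5 m libraries alone called 16 genes, 9 higher and 7 lower. DESeq2 called 408 genes (339 higher, 69 lower), and requiring 10 counts in every library left 84. Estimated in a fit of all 16 libraries, the same contrast called 32 genes (17 higher, 15 lower). Without P2WT replicate 10, 3, 4 or 7 or P2H2WT replicate 16 the count was 75, 76, 94, 94 and 96, and without P2H2WT replicate 14 it was 162, of which 36 were lower.

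**Figure D1:**
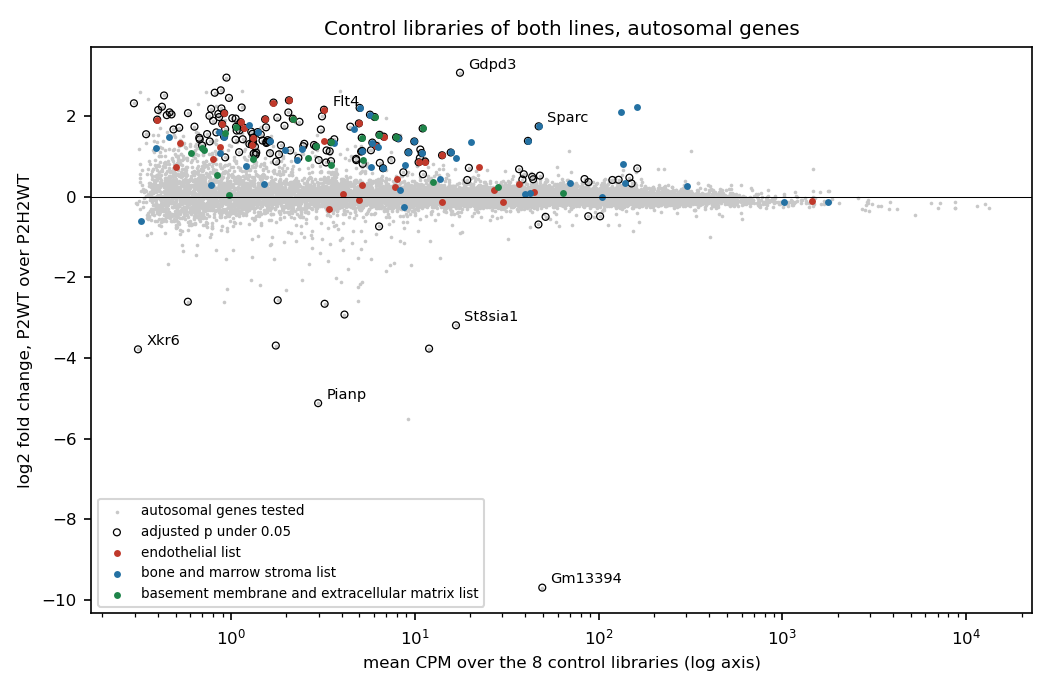
Log2 fold change of P2WT over P2H2WT, termed log2 difference in the text, (vertical axis) against the mean CPM of the 8 control libraries (horizontal log axis), 1 point per autosomal gene tested. Circles mark called genes, genes not reported here are not drawn, and colours mark the endothelial, stroma and matrix lists. Most called genes lie above 0 at a low CPM, while Gm13394 and Pianp lie far below.

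Endothelial genes had the most calls of the 3 lists. Of 36 tested members of the list, 31 were higher in P2WT, 18 were called higher and 0 lower, and for 22 the groups did not overlap. Over all 13120 genes tested, 6124 were higher, 143 were called higher (1.09%) and 673 were higher without overlap (5.13%). The median log2 difference was 1.13, against -0.011 over all genes tested. Of the 6 defining markers, Cdh5, Kdr, Tek, Emcn and Stab2 were called, and Pecam1, the platelet and endothelial adhesion molecule that leukocytes carry as well, had a log2 difference of 0.12 ± 0.087 (SE, edgeR adjusted p 0.664). The summed level of the list overlapped between groups (1572 to 2000 CPM in P2WT and 1503 to 2095 in P2H2WT), and most of it came from the water channel Aqp1, which red blood cells also make and which was at 1396 ± 205 CPM (SD, n = 4) in P2WT and 1508 ± 283 CPM in P2H2WT. In bulk RNA, fewer cells of a type and less RNA per cell cannot be told apart.

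The vessel receptor kinases Flt4, Tek and Kdr were several-fold higher in P2WT. Flt4 (chromosome 11, 49609263 to 49652739), the receptor of VEGF-C on sinusoids and lymphatic vessels, was at 5.26, 5.50, 5.73 and 4.50 CPM in P2WT replicates 3, 4, 7 and 10 and at 1.5, 0.956, 1.16 and 1.05 CPM in P2H2WT replicates 13, 14, 16 and 18. The lowest P2WT value was well above the highest P2H2WT value, and the log2 difference was 2.15 ± 0.17 (SE, edgeR adjusted p 0.000886). Tek, the angiopoietin receptor TIE2, was at 2.82, 2.47, 3.04 and 3.06 CPM in P2WT and at 0.429, 0.558, 0.735 and 0.525 CPM in P2H2WT, in the same order of replicates as for all genes below. Its groups did not overlap either, with a log2 difference of 2.33 ± 0.19 (SE, edgeR adjusted p 0.000957). Ptprb, the phosphatase that restrains TIE2, had a log2 difference of 2.39 ± 0.20 (SE) with the same adjusted p. Kdr, the main VEGF receptor, was at 6.87, 6.75, 7.98 and 9.33 CPM against 1.36, 1.31, 3.17 and 2.95 CPM, a log2 difference of 1.81 ± 0.28 (SE, edgeR adjusted p 0.0144). Within P2H2WT, replicates 16 and 18 were thus above replicates 13 and 14, but all were below P2WT.

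The scavenger receptors Stab1 and Stab2, which take up waste from the blood in sinusoids, differed by less. Stab1 was at 13.6, 14.3, 13 and 13.1 CPM in P2WT and at 7.55, 7.17, 7.35 and 7.79 CPM in P2H2WT, so each group was tight (log2 difference 0.85 ± 0.077 SE, adjusted p 0.00123 in edgeR). Stab2 had a log2 difference of 1.02 and Cdh5, the cadherin of endothelial junctions, one of 0.87. The other called endothelial genes were Robo4, Emcn, Plvap, Sox18, Cldn5, Gpr182, Mmrn2, Clec14a, Esam, Gpihbp1 and Epas1, with log2 differences from 1.26 (Plvap, the diaphragm protein of fenestrated vessels) to 2.07 (Clec14a). Adgrf5, an adhesion receptor of capillaries that is not on the list, was at 4.78 to 5.25 CPM in P2WT and 0.969 to 1.82 CPM in P2H2WT (log2 difference 1.99 ± 0.20 SE, adjusted p 0.00191 in edgeR). Abcc9, a subunit of the potassium channel of pericytes, had a log2 difference of 1.73 ± 0.19 (SE, edgeR adjusted p 0.00327); its exons overlap those of 5330439B14Rik, and the use of strand in counting is not given in the sources used here. Not every endothelial gene was higher, since Tie1 (-0.096), Lyve1 (-0.32) and Adgrl4 (-0.12) had negative log2 differences and did not pass the test.

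Epas1 encodes HIF2α, one of the genes the study deletes, and is strongly expressed by endothelial cells. It was at 8.94, 8.69, 11.1 and 11.3 CPM in P2WT and at 4.97, 3.46, 2.55 and 3.23 CPM in P2H2WT. The control groups therefore differed in the targeted gene without overlap, with a log2 difference of 1.49 ± 0.19 (SE, edgeR adjusted p 0.00764). The other called genes of the endothelial list were higher in P2WT as well, while Pecam1, Tie1, Lyve1 and Adgrl4 did not pass the test, and the part of endothelial RNA in the difference of Epas1 was not tested. Egln1, which encodes PHD2, was at 45.9 to 51.3 CPM in P2WT and 47.8 to 54.5 CPM in P2H2WT (log2 difference -0.11 ± 0.063 SE, adjusted p 0.579 in edgeR). Of the 11 tested members of the list of targeted genes and HIF subunits, Epas1 was the member called. Hif1a, the other main α subunit, had a log2 difference of 0.16 ± 0.12 (SE, edgeR adjusted p 0.690) and Arnt, their common partner, one of -0.067 (SE 0.052). The oxygen sensor Egln3, a HIF target, was at 10.4 ± 0.773 CPM against 11.2 ± 0.740 CPM.

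**Figure D2:**
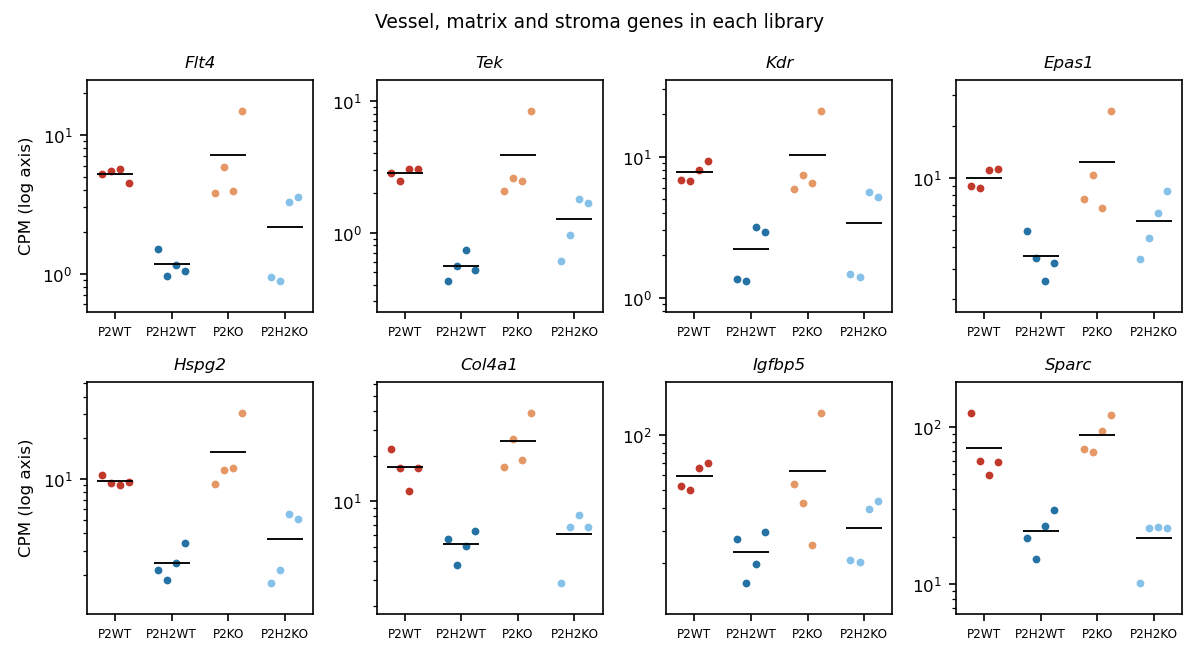
CPM (log axis) of 4 endothelial genes (Flt4, Tek, Kdr, Epas1) and 4 matrix or stroma genes (Hspg2, Col4a1, Igfbp5, Sparc) in the 16 libraries, 1 point per library and a line at the group mean. Every P2WT point lies above every P2H2WT point in all 8 panels, while P2KO and P2H2KO overlap in some. The highest P2KO point is replicate 9, the only f library of P2KO, in each panel.

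Matrix genes differed in the same direction. Of the 22 tested members of the basement membrane and extracellular matrix list, 22 were higher in P2WT, 9 were called, and for 14 the groups did not overlap. Over all genes tested, 1.09% were called higher and 5.13% were higher without overlap. The median log2 difference was 1.18, and the summed level was 194 to 217 CPM in P2WT against 129 to 142 CPM in P2H2WT, without overlap. Hspg2, which encodes the basement membrane proteoglycan perlecan, was at 10.7, 9.34, 9.08 and 9.44 CPM in P2WT and at 2.15, 1.83, 2.44 and 3.39 CPM in P2H2WT. This was a log2 difference of 1.97 ± 0.17 (SE, edgeR adjusted p 0.000957).

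Both main chains of collagen IV, the network-forming collagen of basement membranes, were higher in P2WT. Col4a1 was at 22.4, 16.7, 11.8 and 16.6 CPM against 5.65, 3.78, 5.03 and 6.38 CPM (log2 difference 1.69 ± 0.20 SE, adjusted p 0.00553 in edgeR). Col4a2 had a log2 difference of 1.47 ± 0.16 (SE, edgeR adjusted p 0.00327). These neighbours on chromosome 8 have overlapping exons in the annotation, as have Stab1 with Nt5dc2, Timp3 with Syn3 and St8sia1 with Gm7457, and their reads may be shared. Nid1, which encodes nidogen and links laminin to collagen IV, had a log2 difference of 1.46 ± 0.15 (SE, edgeR adjusted p 0.00236), and the laminin chain genes Lama4 and Lamb1 had 1.73 and 1.24. Fbn1, the gene of fibrillin in elastic microfibrils, was at 8.53 to 10.9 CPM in P2WT and 1.67 to 4.47 CPM in P2H2WT (log2 difference 1.53). Outside the list, Pxdn, the peroxidase that crosslinks collagen IV, was at 1.13 to 1.73 CPM against 0.159 to 0.286 CPM (log2 difference 2.57 ± 0.25 SE, adjusted p 0.00191 in edgeR), and Serpinh1, the chaperone of collagen, had a log2 difference of 1.17 ± 0.18 (SE, edgeR adjusted p 0.0138).

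Of 48 tested genes of the bone and marrow stroma list, 43 were higher in P2WT, 15 were called higher and 0 lower. Of all genes tested, 1.09% were called higher. The median log2 difference of the list was 1.10. The list holds genes that leukocytes make as well, such as Hp (980 ± 151 CPM in P2WT) and Fn1, and its summed level overlapped between groups (4130 to 4710 and 3024 to 4477 CPM). Igfbp5, an insulin-like growth factor binding protein of stromal cells, was at 52.5, 50.1, 66.2 and 70.0 CPM in P2WT and at 27.0, 15.5, 19.6 and 29.3 CPM in P2H2WT. Its log2 difference was 1.38 ± 0.19 (SE, edgeR adjusted p 0.0101). Lepr, the leptin receptor that marks perivascular stroma, was at 9.74 to 14.5 CPM against 4.38 to 7.51 CPM (log2 difference 1.10 ± 0.18 SE, adjusted p 0.0167 in edgeR). Fstl1, Col6a2 and Col6a1 had log2 differences of 1.37, 1.34 and 1.44. Timp3, an inhibitor of matrix proteases, was at 4.73, 5.58, 9.95 and 12.7 CPM against 1.54, 1.59, 2.48 and 1.53 CPM, with the f libraries the highest in each group (log2 difference 2.20 ± 0.33 SE, adjusted p 0.0133 in edgeR).

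Bone matrix genes were highest in P2WT replicate 3. Sparc, the gene of osteonectin, was at 122, 60.3, 49.3 and 59.3 CPM in P2WT and at 19.5, 14.3, 23.4 and 29.5 CPM in P2H2WT (log2 difference 1.74 ± 0.30 SE, adjusted p 0.0243 in edgeR). Col5a2 was at 16.6 CPM in P2WT replicate 3 and at 5.17 to 7.80 CPM in the other P2WT libraries (log2 difference 2.03 ± 0.39 SE, adjusted p 0.0417 in edgeR). These calls held in 3 and 2 of the 8 fits that left out a library. Col1a1, the main collagen of bone, was at 585 CPM in the same P2WT replicate 3, at 141 to 180 CPM in the other P2WT libraries and at 32.5 to 92.2 CPM in P2H2WT. No P2WT library overlapped P2H2WT, but with this spread Col1a1 did not pass the test (log2 difference 2.21 ± 0.50 SE, adjusted p 0.0765 in edgeR). Of the 6 defining stroma markers Lepr was called, while Cxcl12, the chemokine that retains neutrophils, was at 155 to 200 CPM against 61.3 to 143 CPM and did not pass (log2 difference 0.82 ± 0.22 SE, adjusted p 0.143 in edgeR).

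Other cells of the marrow differed less. Of 26 tested megakaryocyte and platelet genes 22 were higher, with a median log2 difference of 0.70. The gene called higher was Sparc, which is also counted in the endothelial, stroma or matrix lists. The summed level was 1695 CPM in P2WT replicate 10, 756 to 1070 CPM in the other P2WT libraries and 702 to 918 CPM in P2H2WT, and without P2WT replicate 10 the median was 0.40. Among the m libraries 15 of 26 genes were higher, and among the f libraries, which include that replicate, 24 of 26. The platelet factor gene Pf4 was at 6.06 to 16.5 CPM against 3.31 to 6.3 CPM and did not pass the test. Of 24 marrow macrophage genes 21 were higher with a median of 0.23, and 1 was called: Timd4, a receptor for phosphatidylserine on resident macrophages, at 6.19 to 7.46 CPM in P2WT and 2.87 to 4.14 CPM in P2H2WT (log2 difference 0.81 ± 0.14 SE, adjusted p 0.0272 in edgeR). The call of Timd4 held in 2 of the 8 fits without a library. The osteoclast list (7 genes tested) had 0 calls and a median of 0.0026.

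**Figure D3:**
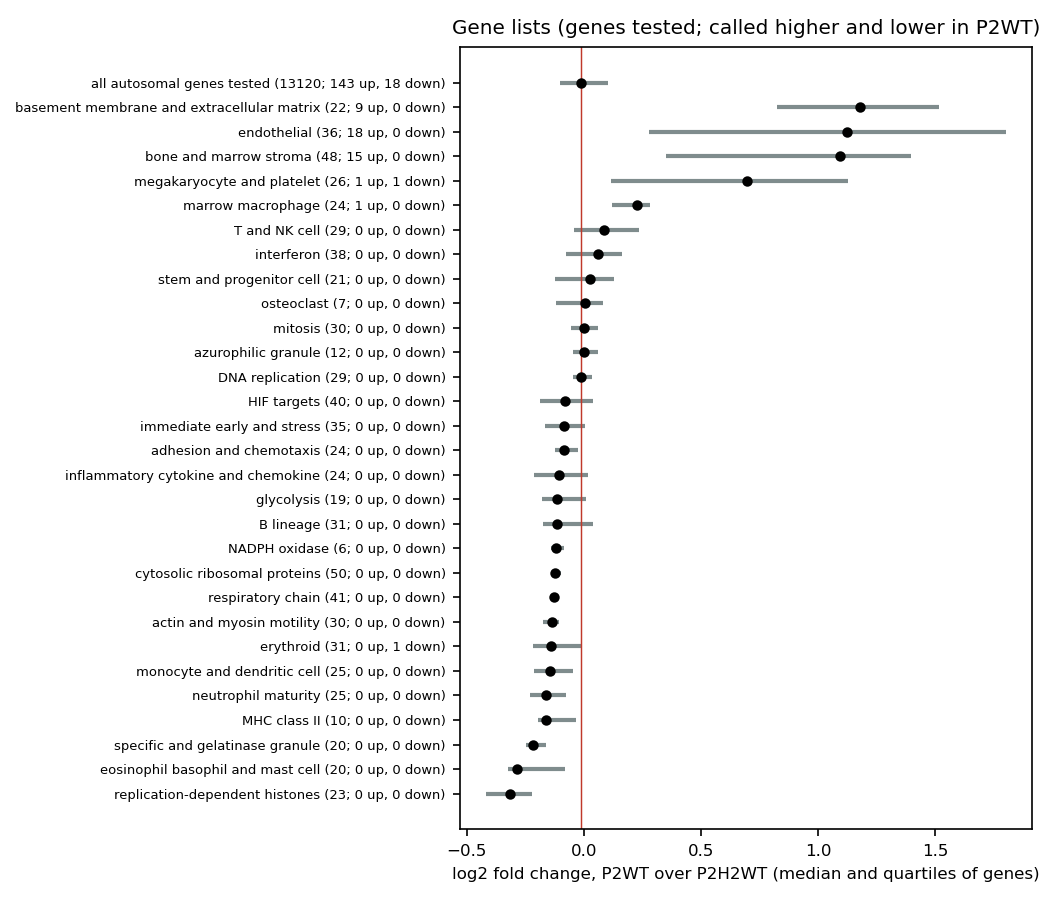
Median (point) and quartiles (bar) of the log2 difference of P2WT over P2H2WT for the genes tested of each list; numbers give genes tested and called. The matrix, endothelial and stroma lists have medians of 1.18, 1.13 and 1.10, the megakaryocyte list 0.70, and the red line marks the median of all 13120 genes (-0.011).

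Neutrophil genes were slightly lower in P2WT, without a call. Of 25 genes of the mature neutrophil list 22 were lower, with a median log2 difference of -0.16 and overlap between the groups for every gene. These genes are short (median 1908 bases of exon), and with the trend over exon length described below removed the median was -0.076. Leaving out 1 library gave -0.34 (without P2WT replicate 10) to -0.038 (without P2H2WT replicate 18), and -0.10 without P2WT replicate 3 or 4 and -0.072 without P2WT replicate 7. All 20 tested genes of the specific and gelatinase granules were lower too, with a median of -0.22 and 0 called. Over all genes tested, 6996 of 13120 were lower. The granule genes are also short (median 2131 bases of exon), and with the length trend removed their median was -0.17. It was -0.38 without P2WT replicate 10 and -0.093 without P2H2WT replicate 18. Camp, the gene of the granule peptide cathelicidin, was at 2504, 2410, 2252 and 3291 CPM in P2WT and 3282, 2835, 3124 and 4065 CPM in P2H2WT. P2WT replicate 10 lay above 3 of the P2H2WT libraries, and the log2 difference of -0.35 did not pass the test (edgeR adjusted p 0.394). The azurophilic granule genes, which are made earlier in development, had a median of -0.0012. Lists that bear on movement had small medians as well: -0.087 for adhesion and chemotaxis (24 genes) and -0.14 for actin and myosin (30 genes), with 0 called. Rhoa, a GTPase of the cytoskeleton, was lower in every P2WT library (443 to 471 against 481 to 547 CPM) but did not pass the test over all genes (log2 difference -0.19 ± 0.068 SE, adjusted p 0.315 in edgeR). For 1 of 30 genes of the actin and myosin list P2WT was higher without overlap, and for 1 it was lower. Over all genes tested these shares were 5.13% and 2.65%.

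The other lists had few or no calls. The erythroid list had a median of -0.14 over 31 genes, of which 23 were lower and 0 called higher. The B lineage (31 genes), T and NK cell (29), monocyte and dendritic cell (25), MHC class II (10), eosinophil, basophil and mast cell (20), stem and progenitor (21), interferon (38), immediate early (35), inflammatory (24), DNA replication (29), mitosis (30), HIF target (40), glycolysis (19) and NADPH oxidase (6) lists had 0, with medians from -0.29 (eosinophil, basophil and mast cell) to 0.085 (T and NK cell). The HIF target list had a summed level of 5632 to 6252 CPM in P2WT and 6427 to 6914 CPM in P2H2WT, without overlap. Such a sum follows the most abundant genes of a list. Of its 40 tested genes 25 were lower in P2WT, against 6996 of all 13120 genes tested. Without overlap, 1 of the 40 was higher and 2 were lower, against 5.13% and 2.65% of all genes tested. The summed level of the respiratory chain list did not overlap either (5518 to 5767 CPM in P2WT and 5896 to 6519 CPM in P2H2WT). The neutrophil lists had different counts in the m and the f libraries, a difference that was not tested. In the mature neutrophil list 1 of 25 genes was higher in P2WT among the m libraries and 16 of 25 among the f libraries, where P2H2WT has a single library. In the specific and gelatinase granule list it was 0 of 20 and 10 of 20. The endothelial list was higher in both, for 31 of 36 and 33 of 36 genes.

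The summed length of all annotated exons of a gene went along with the difference between the groups. Autosomal genes were put in 10 bins of summed exon length. In the shortest bin (53 to 1441 bases) the median log2 difference was -0.12, and in the longest bin (9730 bases or more) it was 0.10. Called genes were 8 of 1313 (0.609%) and 47 of 1311 (3.59%), against 1.23% of all genes tested. Of the 47, 45 were higher in P2WT. In the longest bin the centred level of each P2WT library was above that of each P2H2WT library. The respiratory chain genes are mostly short and had 0 calls (41 of 41 lower, median -0.13, 13 lower without overlap). The cytosolic ribosomal protein genes are mostly short too and had 0 calls (49 of 50 lower, median -0.12, 4 lower without overlap). The replication-dependent histones also had 0 calls (21 of 23 lower, median -0.31). Over all genes tested, 6996 of 13120 were lower, and 348 (2.65%) were lower without overlap. Called genes higher in P2WT had a median exon length of 7328 bases, against 4217.5 over all genes tested. When a smooth trend over length was removed from each library, a step added after the data were seen, 128 genes were called (111 higher, 17 lower), 123 of them among the 161. The 3 structural lists nearly kept their medians under it (1.07 endothelial, 1.15 matrix, 1.14 stroma), and 39 of their 41 called genes were called again. The medians of the short-gene lists moved nearer to 0, to -0.067 for the respiratory chain, -0.053 for the ribosomal proteins and -0.19 for the histones.

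In a separate set of called genes, most calls were lost under this step. It was chosen after the values were seen and comprises the 13 called genes higher in P2WT that had a mean of at least 20 CPM and belonged to none of the 3 structural lists. They were Macf1, Zfp106, Cep350, Setd2, Phf3, Jmjd1c, Rbbp6, Bdp1, Apc, Utrn, Eea1, Abca1 and Golgb1. Their summed exons were 9592 to 31402 bases long, and their log2 differences ran from 0.33 to 0.70, below the median of 1.49 of the structural genes. Setd2, a histone methyltransferase, was at 147 CPM in P2WT and 110.0 CPM in P2H2WT on average, and Macf1, a giant linker of microtubules and actin, at 201 and 124 CPM. With the length trend removed, Bdp1 and Eea1 were still called, and the median of the 13 moved from 0.44 to 0.33. Most of the difference thus stayed while the calls were lost. Of the 89 called genes higher in P2WT outside the 3 lists and under 20 CPM, 69 were called again.

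Genes lower in P2WT were fewer, and some differed by more. Of these 18 genes, 7 lie on chromosome 6, which holds 783 of the 13120 genes tested. Several of them also split single libraries. Pianp (chromosome 6, 124996694 to 125003096) was at 0.113, 0.0404, 0.237 and 0.252 CPM in P2WT and at 6.87, 3.74, 2.86 and 9.73 CPM in P2H2WT (log2 difference -5.12 ± 0.53 SE, adjusted p 0.00236 in edgeR). St8sia1 (chromosome 6, 142821545 to 142964452), the sialyltransferase that makes ganglioside GD3, was at 3.30, 2.43, 4.11 and 3.39 CPM against 34.1, 16.7, 17.2 and 52.8 CPM (log2 difference -3.19 ± 0.38 SE, adjusted p 0.00527 in edgeR). In both, P2H2WT replicates 13 and 18 were above replicates 14 and 16, and P2H2KO replicates 11 and 17 were at the level of the P2 line (0.519 and 0.270 CPM for Pianp, 2.47 and 2.43 CPM for St8sia1). Slc6a13, a GABA transporter, and H2afj, a histone variant, lie on the same chromosome and were lower in P2WT by less (log2 differences -0.74 and -0.49). Emp1 (chromosome 6, 135362545 to 135383173), named after its values were seen, was at 4.62 to 7.02 CPM in P2WT and at 60.0, 4.26, 49.5 and 71.1 CPM in P2H2WT. Replicate 14 alone was at the level of P2WT, and the gene did not pass the test (edgeR adjusted p 0.0619).

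**Figure D4:**
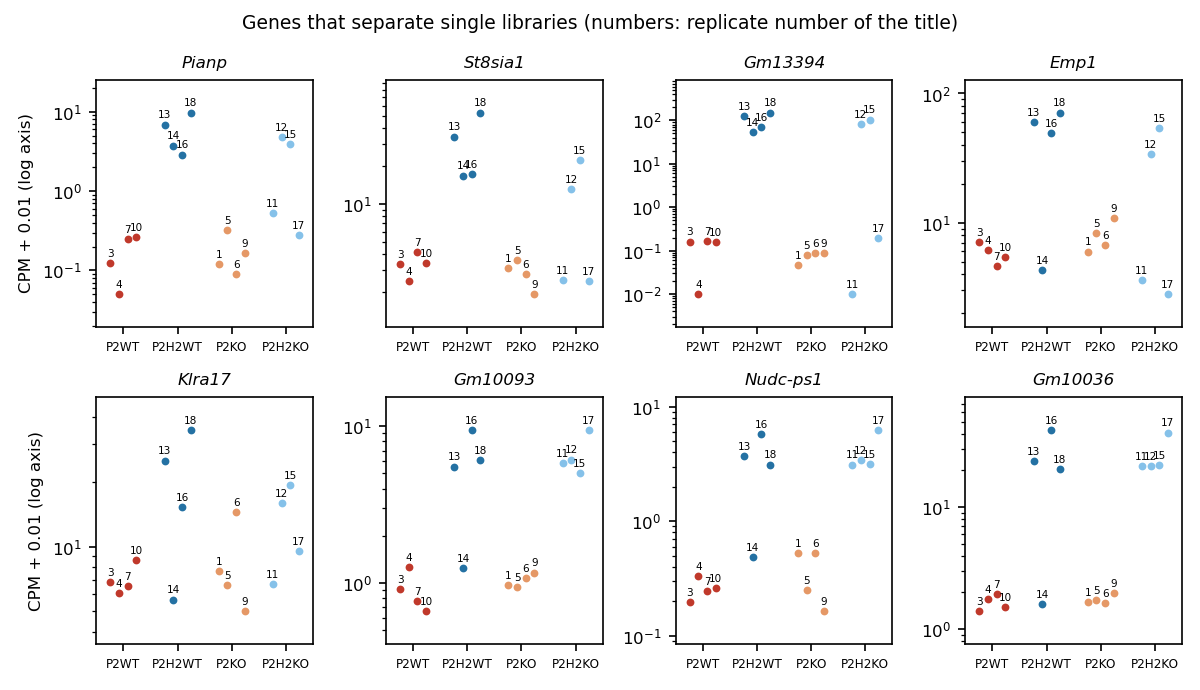
CPM + 0.01 (log axis) of 8 genes in the 16 libraries, with the replicate number of each title beside its point. Pianp, St8sia1 and Gm13394 are low in P2H2KO replicates 11 and 17 as in the P2 line, Gm10093, Nudc-ps1 and Gm10036 are low in P2H2WT replicate 14, and Emp1 and Klra17 are lower in these 3 libraries than in the others of their groups.

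Several of the 18 are processed pseudogenes, reverse-transcribed copies of a coding gene, which differ from it at few bases. Gm13394 is 99.9% identical to Gapdh over 1000 bases, Gm10093 is 99.4% identical to Hdac1 over 1444 bases and Nudc-ps1 is 99.1% identical to Nudc over 555 bases. The 30-base windows below, from the GENCODE M21 transcripts of GRCm38, show a base that separates each coding gene from its copy, in capitals, because such bases tell reads of the coding gene from reads of the copy. They were chosen after the values were seen, and positions count from the 5′ end of the coding transcript. The Gapdh window (A438C) lies in coding exon 4, the Hdac1 window (G426A) crosses a junction of coding exons with the marked base in exon 4, and the Nudc window (G588A) lies in coding exon 5.
Gapdh, chr6:125163002-125163031, minus strand: aagggtggagccaaaAgggtcatcatctcc
Gm13394, chr2:28934250-28934279, minus strand: aagggtggagccaaaCgggtcatcatctcc
Hdac1, chr4:129523101-129524274, minus strand, spliced: ctgtcagttgtccacGggaggctctgtcgc
Gm10093, chr17:78491908-78491937, plus strand: ctgtcagttgtccacAggaggctctgtcgc
Nudc, chr4:133534481-133534510, minus strand: gaaggacaaaggaaaGctgaagcccaacct
Nudc-ps1, chr8:29286932-29286961, minus strand: gaaggacaaaggaaaActgaagcccaacct

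Gm13394 was at 0.150, 0, 0.158 and 0.144 CPM in P2WT and at 123, 52.7, 69.3 and 150 CPM in P2H2WT (log2 difference -9.69 ± 0.55 SE, adjusted p 5.21e-05 in edgeR). It split the libraries as Pianp did, which lies close to Gapdh on chromosome 6: P2H2KO replicates 12 and 15 had 80.2 and 103 CPM and replicates 11 and 17 had 0 and 0.180 CPM. Gapdh, the glycolytic enzyme, had a log2 difference of 0.052 ± 0.10 (SE, edgeR adjusted p 0.887). With both counts added, the sum was 389 ± 39 CPM in P2WT and 473 ± 65.3 CPM in P2H2WT, and the copy took up to 0.0410% of it in a P2WT library and 13.5% to 27.5% in a P2H2WT library. The reads themselves were not examined, so which base they carry was not tested.

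The other pseudogenes split different libraries. Gm10093 was at 0.901, 1.25, 0.750 and 0.648 CPM in P2WT and at 5.51, 1.23, 9.48 and 6.10 CPM in P2H2WT (log2 difference -2.66 ± 0.52 SE, adjusted p 0.0428 in edgeR). Nudc-ps1 was at 0.188 to 0.323 CPM in P2WT and at 3.72, 0.478, 5.72 and 3.11 CPM in P2H2WT (log2 difference -3.69 ± 0.66 SE, adjusted p 0.0298 in edgeR). Gm10036, a copy of the ribosomal protein gene Rpl11 with 99.3% identity, was at 1.39 to 1.94 CPM against 23.9, 1.59, 43.0 and 20.6 CPM (log2 difference -3.77 ± 0.75 SE, adjusted p 0.0448 in edgeR). In all 3, P2H2WT replicate 14 was near P2WT and replicate 16 was the highest, and all 4 P2H2KO libraries were high. The coding genes Hdac1, Nudc and Rpl11 lie within chromosome 4 between 129516104 and 136053428. Hdac1 itself was at 97.4 CPM in P2H2WT replicate 14, close to the 90.1 to 95.4 CPM of P2WT, and at 62.0 to 81.4 CPM in the others. Added to Gm10093 it came to 94.0 ± 2.5 CPM in P2WT and 85.5 ± 11.1 CPM in P2H2WT.

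Another group lies on chromosome 14, where Xkr6, Mtmr9 and Fzd3 are found between 63519651 and 65262463. Mtmr9, a phosphatase-like regulator of phosphoinositides, was at 34.7, 33.3, 40.4 and 36.0 CPM in P2WT and at 58.6, 54.3, 69.2 and 50.2 CPM in P2H2WT (log2 difference -0.69 ± 0.11 SE, adjusted p 0.0145 in edgeR). Xkr6 was at 0 to 0.0790 CPM against 0.425 to 0.715 CPM and Fzd3, a Wnt receptor, at 0 to 0.263 CPM against 0.525 to 1.28 CPM. In contrast to the genes above, no library of a group left its group here. The remaining called genes lower in P2WT were Noct, Tinagl1 and the immunoglobulin segments Ighv1-85 and Ighv1-42. Tinagl1 lies in the same stretch of chromosome 4 as Hdac1 and Nudc (130164454 to 130175122) but was at 115 to 124 CPM in all P2H2WT libraries, replicate 14 included, against 70.5 to 101 CPM in P2WT. Noct, a circadian phosphatase of NADP, was at 39.9 to 45.8 CPM against 53.0 to 64.7 CPM (log2 difference -0.50 ± 0.085 SE, adjusted p 0.0239 in edgeR). The call of Noct held in 3 of 8 fits without a library, that of Slc6a13 in 2, and those of Tinagl1 and H2afj in 1.

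The largest difference among genes higher in P2WT at 5 CPM or more was Gdpd3, an enzyme of lysophospholipid metabolism (chromosome 7, 126766334 to 126775649). It was at 29.5, 41.5, 50.1 and 4.97 CPM in P2WT and at 3.51, 2.95, 3.60 and 4.93 CPM in P2H2WT. P2WT replicate 10 was thus barely above the highest P2H2WT library, while replicates 3, 4 and 7 were far above. The log2 difference was 3.07 ± 0.57 (SE, edgeR adjusted p 0.0361), and the call held in 1 of the 8 fits without a library. In the deficient libraries all 4 of P2KO were at 23 to 57.8 CPM and all 4 of P2H2KO at 3.29 to 5.23 CPM. Exons of Gdpd3 overlap those of Gm9967.

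The same contrast between lines can be made in 8 libraries that share no sample with the controls, P2KO against P2H2KO, although these also differ in the deletion of HIF2. In that comparison 38 of 13138 autosomal genes (0.289%) were called, 24 higher in P2KO and 14 lower. Of the 161 genes called between the controls, 153 were tested there, and 153 had the same sign, against 70.3% of all 12943 genes tested in both. Of these, 9 were called there and 121 had an unadjusted p under 0.05. The median log2 difference of the genes higher in P2WT was 1.40 in the controls and 1.27 in the deficient libraries. The endothelial, stroma and matrix lists had medians of 1.08, 1.03 and 1.32 there, with 0, 8 and 1 called. P2KO replicate 9 stood above the other P2KO libraries in vessel genes, with Flt4 at 15 CPM against 3.82 to 5.90 CPM. P2H2KO replicates 15 and 17 (3.30 and 3.56 CPM) stood above replicates 11 and 12 (0.951 and 0.886 CPM). By title, replicate 9 is the only f library of P2KO, and replicates 15 and 17 are the f libraries of P2H2KO. For Flt4 the split of both deficient groups thus followed the suffix, which was not tested.

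**Figure D5:**
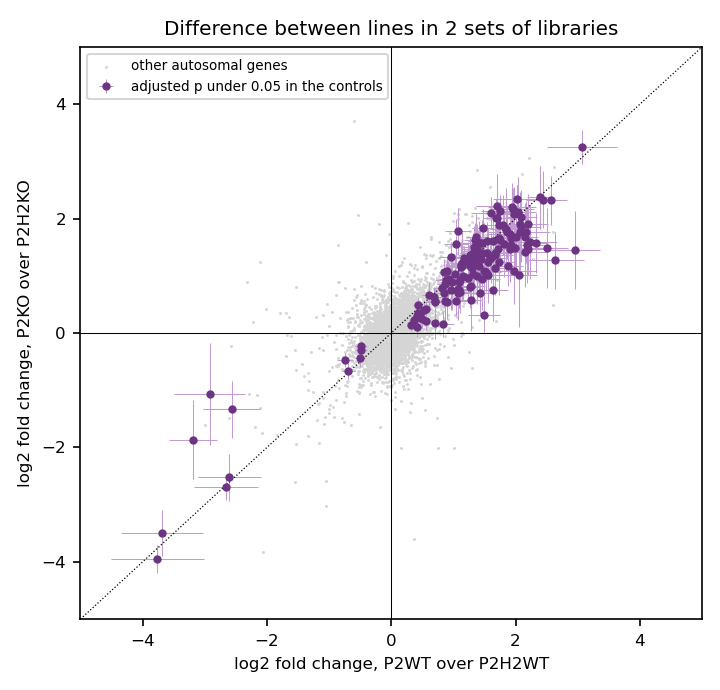
Log2 fold change of P2KO over P2H2KO (vertical) against that of P2WT over P2H2WT (horizontal) for autosomal genes, with SE bars for the genes called in the controls; the dotted line marks equal values. The called genes that were tested in both sets lie at the upper right or lower left.

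Genes called in both sets included Gdpd3, Col5a2, Sparc, Serpinh1 and Lama4, and the pseudogenes Gm10036, Gm10093 and Nudc-ps1. Sparc was at 68.5 to 118 CPM in P2KO and 10.1 to 23.2 CPM in P2H2KO (log2 difference 2.14, edgeR adjusted p 0.0237). A fit of all 16 libraries with genotype as a covariate called 896 of 13589 genes (6.59%), of which 680 were higher in the P2 line (5% of those tested). Of the 161 genes, 152 were among the 896. This fit includes the control libraries in which the 161 were called, so the overlap is not separate support. The difference between both contrasts, tested as an interaction over the 16 libraries, gave 0 genes by edgeR (smallest adjusted p 0.999), with 209 at an unadjusted p under 0.05. That a gene was called in 1 set and not in the other therefore does not show that the sets differ.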

How the data were processed

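Whole-number counts per gene were used as the authors deposited them. Per the submitters' processing notes, HTSeq and the mm10 build were used; the aligner, annotation release and strand setting are not given in the sources used here. The 2 tables were joined on Ensembl identifier (49585 gene rows, of which 259 identifiers had no entry in GENCODE M21, GRCm38, which gave names, positions and exon lengths). No column of another sample was present.

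Genes passing filterByExpr were fitted in edgeR 4.0.16 (R 4.3.3) with TMM factors and robust quasi-likelihood, separately for the controls, for the deficient libraries, and for all 16 libraries with genotype as a covariate. Adjusted p-values cover the genes of all chromosomes, with a threshold of 0.05; counts given are autosomal. SE is the log2 difference divided by the root of F. CPM values use TMM factors over all 16 libraries. DESeq2 1.42.0 was an alternative, among others given in the closing section. Pseudogenes were aligned with blastn 2.17.0. Tested on simulated data for P2WT against P2H2WT (13465 genes), the procedure called 50%, 90%, 98% and 100% of 50 genes changed by log2 0.5, 1, 1.5 and 2, and 8 of 13265 unchanged genes. The changed genes all had a mean above 1 CPM, while some called genes lie below it. The simulation held no trend over exon length and no split of single libraries, so these shares do not cover such cases.

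The comparison and the 31 gene lists (793 genes) were chosen with earlier results of these data known. Genes were named by rule: up to 12 per direction with the largest difference among called genes of at least 5 CPM without overlap, the 8 smallest p, up to 3 called per list, all tested HIF and substrain genes, and called genes shared with the deficient libraries. Predicted genes, pseudogenes and antigen receptor segments were outside the rule. These and any other gene named outside it were chosen after their values were seen. The genes of 1 locus entered the fits and counts but are not reported here.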

Additional observations from a re-analysis of the deposited data

Results flagged for a closer look

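In 102 groups of 4 libraries, 1 per named gene and control group, a library far from the other 3 was found in 7; chance alone gives about 1 in 20. In P2WT replicate 3, Sparc was at 122 CPM (others 49.29 to 60.27) and Serpinh1 at 21.29 CPM (others 12.28 to 13.06). Hif3a, a HIF subunit, was at 3.314 CPM in P2WT replicate 4 (others 1.652 to 1.909), and Wdfy1 was at 54.07 CPM in P2WT replicate 10 (others 49.52 to 49.74). In P2H2WT, Timp3 was at 2.475 CPM in replicate 16 (others 1.534 to 1.593), and replicate 18 had Timd4 at 2.866 CPM (others 3.97 to 4.142) and Nlrp12 at 4.481 CPM (others 2.907 to 3.112).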

How the results depend on the processing

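No paired analysis was possible because the groups share no replicate numbers. Between the controls (161 called), requiring 10 counts in every library gave 84 genes and DESeq2 408 (160 of the 161 among them). The m libraries alone gave 16. A fit of all 16 libraries gave 32 (17 higher, 15 lower), with 28 of the 161 among them. Leaving out 1 library gave 75 to 162, and the 162 without P2H2WT replicate 14 held 113 of the 161. Between the deficient libraries (38), no filter gave 63, the 10-count minimum 12, DESeq2 250, the suffix as a covariate 146, the m libraries 13 and the 16-library fit 128, with 11 (without P2H2KO replicate 17) to 26 when a library was left out. Between lines (896), these were 552 for the 10-count minimum, 1478 for DESeq2 and 263 for the m libraries, and 555 (without P2KO replicate 9) to 1182 (without P2H2WT replicate 14). Of 372 list medians under alternatives, 9 moved beyond the spread between libraries.

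Sign changes were found for genes that were not called. Cyfip2 was at 0.016 with the suffix as a covariate and at -0.084 to 0.061 without a library. Lpp was at -0.032 in the m libraries and -0.057 with length as an offset. Vav1 was at 0.013 with length and -0.043 to 0.030 without a library, and the log2 fold change of Ide was -0.0061 with length and -0.030 to 0.0988 without a library. Egln2 was at -0.041 in the m libraries and -0.036 to 0.042 without a library, Naip5 at -0.018 and -0.028 to 0.19, and Hif1an at -0.056 to 0.035 without a library. The causes were not tested. Low counts limit genes near 1 CPM, and 4 libraries a group limit all.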

Other observations

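Some genes varied within a control group and belong to no comparison above; they were chosen after their values were seen. Prg4, the gene of lubricin in joints, was at 69.4 CPM in P2H2WT replicate 18 and at 2.27 CPM or less in the other 7 control libraries. Klra17 and Apold1, both on chromosome 6, split P2H2WT as Emp1 did. Klra17 was at 25.1, 15.3 and 35.0 CPM in replicates 13, 16 and 18 and at 5.65 CPM in replicate 14, against 6.06 to 8.61 CPM in P2WT. Apold1 was at 0.823, 2.90 and 0.525 CPM in these replicates and at 9.88 CPM in replicate 14, against 6.04 to 9.54 CPM in P2WT. Slc7a11, the cystine transporter, was at 36.7 CPM in P2WT replicate 10 and at 8.29 to 15.4 CPM in the other control libraries.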
